A study of Ovis aries with 6 samples.

Results

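The expression of 10 genes of glycolysis and lactate metabolism was followed in 6 sheep samples labelled hypothalamus: HK1, PFKM, PFKP, PFKL, ALDOA, ENO1, ENO2, PKM, LDHA and LDHB. They were chosen by gene name, which found 9 of the 10 among 26067 features. The remaining gene, PFKP, stood in the tables as LOC101108592, whose number is the RefSeq gene ID of PFKP and whose deposited annotation reads platelet-type phosphofructokinase, and that feature was used. HP stands for 3 small-tailed Han sheep, a breed that the submitters put in the high reproduction class. LP stands for 3 Wadi sheep, which they put in the low reproduction class. The animals were described as healthy and of similar body composition, and no age, sex or stage of the cycle is stated for them. Each breed made up a whole class, so breed and class cannot be told apart. Sequencing used Oxford Nanopore long reads of PCR-amplified cDNA that covers whole transcripts.

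Glycolysis turns glucose into pyruvate in a chain of enzyme steps, and lactate dehydrogenase interconverts pyruvate and lactate. Several steps can be run by enzymes from different genes, called isoforms here, whose use differs between cell types. In the mammalian brain ENO2 is the enolase of neurons and neuroendocrine cells and ENO1 the enolase of most other cells, ALDOC is the aldolase of astrocytes and Purkinje cells, and LDHB favours the use of lactate where LDHA favours its formation. The deposited tables hold values per gene, so the splice forms of a gene, such as those of PKM, were not separated.

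The libraries held 1981644 to 2732911 counts, and the 3 counts that an observed 0 leaves possible stood for 1.00 to 1.56 CPM (counts per 1000000, scaled with the TMM factors of edgeR). This limit and the intervals below cover counting error only, since amplified reads are not independent molecules. The tissue label was set against marker genes. As CPM of the library totals, the summed level of 12 anterior pituitary genes was 112 to 193 CPM in HP and 47660 to 304457 CPM in LP, with TSHB, POU1F1 and PITX1 at 0 counts in HP. That of 9 cerebellar granule and Purkinje cell genes was 3821 to 4258 CPM in HP and 17.8 to 45.4 CPM in LP, with EN2 at 0 counts in LP. The 11 hypothalamic genes listed summed to 93.9 to 146 CPM in HP and 2.63 to 4.96 CPM in LP. TRH, the only one of them tested, held 218, 399 and 317 counts in HP, against 0 in each LP library, and was called higher in HP. GNRH1, KISS1 and HCRT had no count in any library, and OXT and AVP had none in HP and at most 7 in an LP library. The markers thus did not bear out the hypothalamus label. Cerebellar genes stood high in HP alone and anterior pituitary genes in LP alone. Whether the tissue sampled differed between HP and LP was not tested. Only the numbers, not the letters, of the table columns match the sample titles, and every statement about HP or LP rests on that match. In bulk tissue, fewer cells of a type and less RNA per cell cannot be told apart.

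ENO2 and LDHB were higher in HP, and HK1, ALDOA and ENO1 were lower. Across 13078 genes, the quasi-likelihood test of edgeR, adjusted by Benjamini-Hochberg, called 51.2% at an adjusted p under 0.05, 27.1% higher in HP and 24.1% lower. Of the 9 enzyme genes with enough counts for this test, 2 were called higher in HP and 3 lower, a share close to that background. Their median log2 fold change, HP minus LP, was -0.78, against 0.02 for all genes tested. The CPM of the HP and LP libraries did not overlap in 7 of the 9, against 62.9% of all genes tested, and their TPM did not overlap in 8, against 62.6%. HK1, ALDOA and ENO1 missed the threshold with library totals in place of TMM (adjusted p = 0.0940, 0.0866 and 0.112) and with no filter on low counts (adjusted p = 0.0943, 0.109 and 0.0899). LDHA did not pass that filter. The samples are given as separate, so p-values measure the spread between the libraries of 3 sheep a breed. That spread takes in the differences in cell type markers between libraries of a breed given below.

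**Figure D1:**
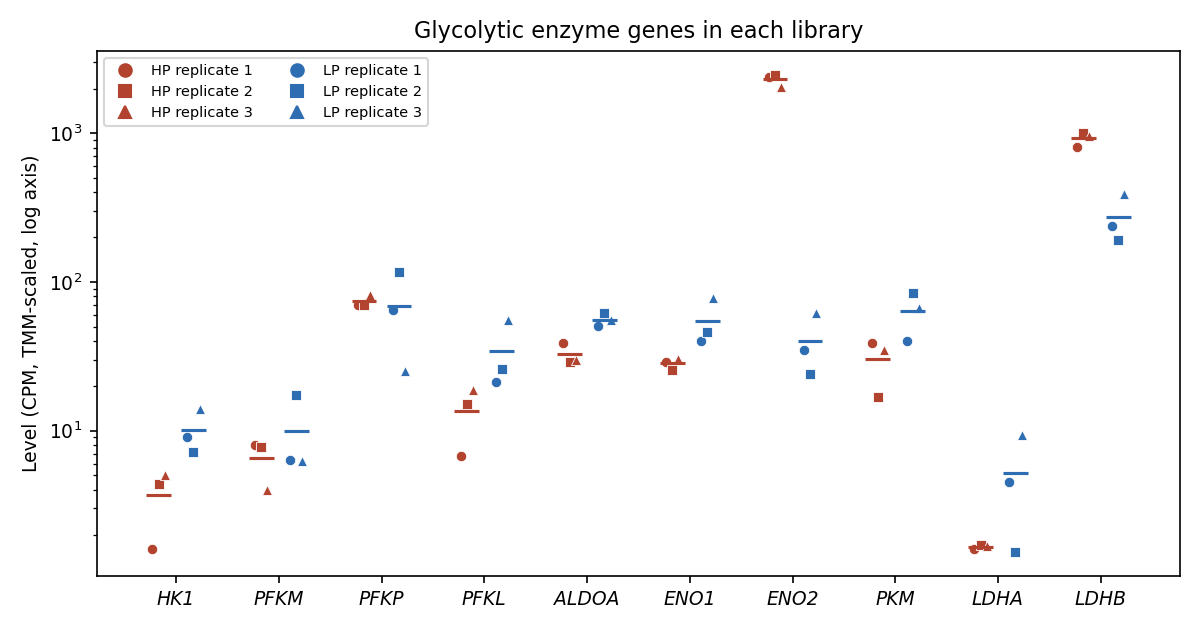
Levels of the 10 enzyme genes in CPM (log axis) in each HP (red, left) and LP (blue, right) library, with the replicate shown by the symbol and the group mean by a bar. ENO2 stands at 2055 to 2484 CPM in HP and 24.0 to 62.0 CPM in LP, the widest gap of the 10.

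Enolase, which makes phosphoenolpyruvate, showed the widest difference. ENO2 had 5986, 7352 and 6147 counts in the HP libraries and 77, 47 and 119 in the LP libraries. All HP libraries were far above all LP libraries. Its level was 2308 ± 225 CPM in HP and 40.3 ± 19.6 CPM in LP (SD, n = 3 each), and it was 57.2-fold higher in HP (log2 fold change 5.84, SE 0.45, adjusted p = 3.77e-04). The call held without each library in turn, with 47.4-fold to 76.2-fold differences, and with deposited TPM, the authors' length-scaled value per gene (transcripts per 1000000), at 82.6-fold on log2(TPM + 1) and 94.5-fold on log2(TPM + 0.1).

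ENO1 moved the other way. It held 73, 76 and 91 counts in HP, against 89, 91 and 149 in LP, or 28.4 ± 2.45 CPM in HP and 54.8 ± 20.01 CPM in LP (SD, n = 3 each). LP replicate 3 held the highest level, and the lowest LP library still stood above the highest HP library in CPM. ENO1 was 1.93-fold lower in HP (log2 fold change -0.95, SE 0.30, adjusted p = 0.0318). Leaving out HP replicate 1, 2 or 3 ended the call (adjusted p = 0.111, 0.141 and 0.0903). In TPM the groups overlapped, with 10.9, 13.0 and 17.8 TPM in HP and 23.5, 11.8 and 26.5 TPM in LP, and limma on log2(TPM + 1) made no call (adjusted p = 0.325).

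The balance of these enolases differed between the groups in each library. By TPM, the ratio of ENO2 to ENO1 was 71.4, 35.0 and 36.8 in HP and 0.283, 0.347 and 0.364 in LP. ENO2 exceeded ENO1 in every HP library and ENO1 exceeded ENO2 in every LP library. The mean log2 ratio was 5.50 ± 0.57 in HP and -1.60 ± 0.19 in LP (SD, n = 3 each), a difference of 7.10 (exact permutation test, two-sided, p = 0.1). This is the smallest value that 3 against 3 libraries allow, and after adjustment over the 5 ratios tested the exact permutation p was 0.125. By counts, ENO2 made up 98.5% (95% Wilson interval 98.2 to 98.8) to 99.0% (98.7 to 99.2) of ENO1 and ENO2 reads in HP libraries and 34.1% (26.7 to 42.3) to 46.4% (39.0 to 54.0) in LP libraries. Both enolases summed to 2336 ± 222 CPM in HP and 95.1 ± 38.7 CPM in LP (SD, n = 3 each).

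Lactate dehydrogenase was almost wholly LDHB in all 6 libraries. By TPM, LDHB exceeded LDHA 898-fold, 975-fold and 1032-fold in HP and 97.2-fold, 299-fold and 67.7-fold in LP. By counts the folds were smaller, at 505, 595 and 576 in HP and 52.6, 125 and 41.7 in LP. All of them rest on 3 to 18 LDHA counts in a library, so their size is uncertain. LDHB held 2020, 2973 and 2880 counts in HP, against 526, 376 and 750 in LP, with no overlap. Its level was 924 ± 105 CPM in HP and 274 ± 104 CPM in LP (SD, n = 3 each). It was 3.38-fold higher in HP (log2 fold change 1.76, SE 0.32, adjusted p = 0.00392), and the call held without each library in turn, at 2.92-fold to 4.19-fold. With limma on log2(TPM + 1) the difference was 1.79-fold (adjusted p = 0.0495).

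LDHA stood close to the limit of detection. It held 4, 5 and 5 counts in HP, against 10, 3 and 18 in LP. The HP libraries were alike and the LP libraries spread around and above them. By counts, LDHA took 0.168% (95% Wilson interval 0.0717 to 0.392) to 0.198% (0.0769 to 0.507) of LDHA and LDHB reads in HP libraries. In LP libraries it took 0.792% (0.270 to 2.30) to 2.34% (1.49 to 3.67). The mean log2 ratio of LDHA to LDHB by TPM was -9.92 ± 0.10 in HP and -6.97 ± 1.12 in LP (SD, n = 3 each), a difference of -2.95 without overlap (exact permutation test, two-sided, p = 0.1, and p = 0.125 adjusted over the 5 ratios). The difference was -1.56 with 1 TPM added to both genes and -3.58 without LP replicate 2. Other features annotated as this enzyme, LDHAL6B, LOC114118359 and LOC101118315, held at most 8 counts in a library. Reads of near-identical copies could be split or lost in counting, which makes low levels of such genes uncertain.

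**Figure D2:**
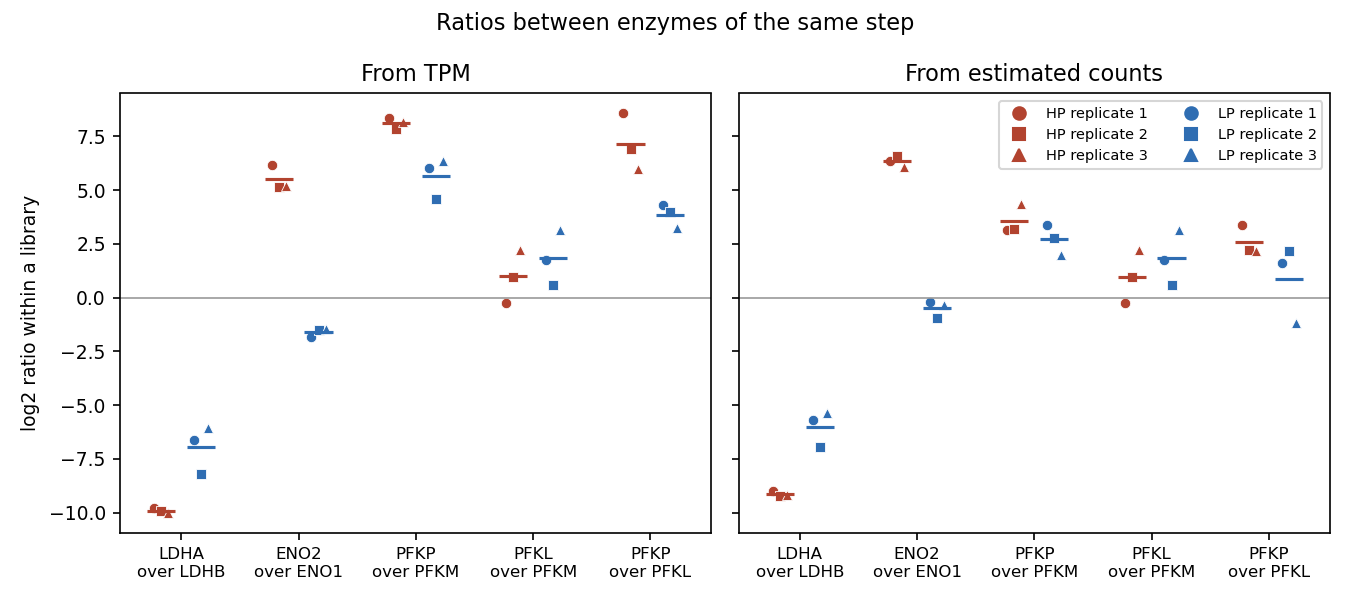
Log2 ratios between enzymes of the same step in each library, from TPM (left panel) and from estimated counts (right panel), HP in red and LP in blue, with bars at group means. ENO2 over ENO1 lies above 0 in every HP library and below 0 in every LP library in both panels, whereas PFKP over PFKM and PFKP over PFKL separate the groups by TPM and overlap by counts.

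Aldolase splits the sugar into its triose phosphates. ALDOA, the aldolase of muscle and many other tissues, held 97, 86 and 90 counts in HP, against 112, 121 and 106 in LP. Its level was 32.6 ± 5.26 CPM in HP and 55.9 ± 5.50 CPM in LP (SD, n = 3 each), with no overlap. It was 1.72-fold lower in HP (log2 fold change -0.78, SE 0.22, adjusted p = 0.0223). Leaving out HP replicate 2 or 3 ended the call (adjusted p = 0.131 and 0.101). Limma on log2(TPM + 1) gave a 2.54-fold lower level in HP, on a scale where the median log2 difference of all genes was -0.31.

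ALDOC, the brain aldolase, was not among the 10 genes but shares the step. It held 5826, 6892 and 8409 counts in HP, against 105, 122 and 1529 in LP. LP replicate 3 stood well above the other LP libraries and below all HP libraries. ALDOC was 8.23-fold higher in HP (adjusted p = 0.0471). It was 44.3-fold higher without LP replicate 3, and its call was lost without any other single library (adjusted p = 0.0715 to 0.0975) and with a robust prior (adjusted p = 0.0579).

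Hexokinase traps glucose as glucose phosphate, and HK1 is the hexokinase of brain and red blood cells. HK1 held 4, 13 and 15 counts in HP, against 20, 14 and 27 in LP. These were low counts in every library, lowest in HP replicate 1. Its level was 3.67 ± 1.82 CPM in HP and 10.1 ± 3.58 CPM in LP (SD, n = 3 each), 2.69-fold lower in HP (log2 fold change -1.43, SE 0.48, adjusted p = 0.0415). Without HP replicate 1, 2 or 3 or LP replicate 1 or 3 the call was lost (adjusted p = 0.129, 0.111, 0.0699, 0.0723 and 0.0887). HK2 and HK3, the other measured hexokinases with over 1 count, reached at most 8 and 14 counts in a library.

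Phosphofructokinase, the main control point of glycolysis, is built from muscle (PFKM), liver (PFKL) and platelet (PFKP) subunits. None of the 3 genes passed the threshold by counts. PFKL held 17, 45 and 56 counts in HP, against 47, 51 and 107 in LP. Its level was 13.6 ± 6.14 CPM in HP and 34.4 ± 18.7 CPM in LP (SD, n = 3 each), which did not overlap, with a log2 fold change of -1.33 (SE 0.50, adjusted p = 0.0587). It passed without LP replicate 1 (adjusted p = 0.0437), with DESeq2 (adjusted p = 0.0306), without genes above 1% of any library (adjusted p = 0.0469) and with limma on log2(TPM + 1) (adjusted p = 0.0152). On that TPM scale the median log2 difference of all genes was -0.31.

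PFKM held 20, 23 and 12 counts in HP, against 14, 34 and 12 in LP. The groups overlapped, with a log2 fold change of -0.60 (SE 0.52, adjusted p = 0.359). Without LP replicate 2 the log2 fold change was 0.037, and without LP replicate 3 it was -0.87. PFKP held 176, 207 and 246 counts in HP, against 144, 230 and 48 in LP. LP replicate 3 was the lowest and LP replicate 2 the highest in CPM, with a log2 fold change of 0.10 (SE 0.49, adjusted p = 0.879), and -0.33 without LP replicate 3.

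In TPM the phosphofructokinases looked different. PFKP stood at 169, 129 and 102 TPM in HP and 58.2, 52.8 and 59.7 TPM in LP, with no overlap, and passed limma's test on log2(TPM + 1) at 2.28-fold higher in HP (adjusted p = 0.0120). PFKP took 98.1% to 99.4% of the TPM of these 3 genes in HP libraries and 89.3% to 93.8% in LP libraries. By counts it took 75.3% (95% Wilson interval 69.8 to 80.0) to 82.6% (77.0 to 87.1) in HP. In LP replicates 1, 2 and 3 its share of counts was 70.2% (63.7 to 76.1), 73.0% (67.9 to 77.6) and 28.7% (22.4 to 36.0). PFKL was the most counted subunit in LP replicate 3 alone, with 64.1% (56.6 to 71.0).

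The ratios of PFKP to the other subunits depended on the unit in the same way. The mean log2 ratio of PFKP to PFKM by TPM was 8.13 ± 0.24 in HP and 5.67 ± 0.94 in LP (SD, n = 3 each; exact permutation test, two-sided, p = 0.1). By counts it was 3.56 ± 0.69 in HP and 2.71 ± 0.68 in LP, with overlap (exact permutation test, p = 0.3). PFKP to PFKL gave a difference of 3.31 by TPM and 1.70 by counts (exact permutation p = 0.1 and 0.2). Leaving out HP replicate 1 gave 2.60 by TPM, leaving out HP replicate 3 gave 3.89, and the difference was 2.52 with 1 TPM added to both genes, which gave 1.75 for PFKP to PFKM. PFKL to PFKM overlapped in both units (difference -0.85, exact permutation p = 0.5 in each), and leaving out 1 library gave -1.47, without LP replicate 2, to -0.19, without LP replicate 3.

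**Figure D3:**
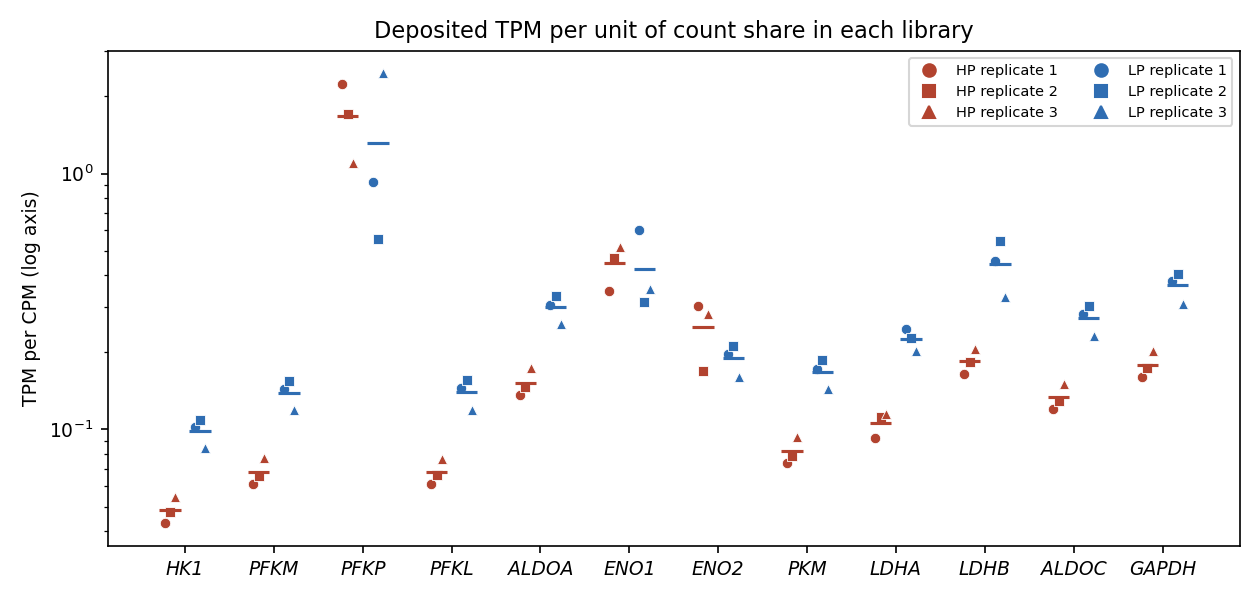
Deposited TPM divided by CPM of the library total (log axis) for the 10 genes, ALDOC and GAPDH, in each HP (red, left) and LP (blue, right) library. Most genes keep the same step between HP and LP, whereas PFKP, ENO1 and ENO2 do not, and PFKP stands above all others shown.

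How much TPM a read was worth differed between genes and libraries. For a gene counted with a single length, TPM divided by CPM should differ between HP and LP by the same amount as for other such genes. Over 12221 tested genes with counts in all libraries the median difference was -1.03 on the log2 scale (5th to 95th percentile -1.12 to 0.39). HK1, PFKM, PFKL and PKM were at -1.03, -1.03, -1.04 and -1.03, and ALDOC at -1.03. PFKP was at 0.58, ENO2 at 0.37, ENO1 at 0.12 and LDHB at -1.24. In PFKP, TPM per CPM was 2.24, 1.71 and 1.10 in HP and 0.924, 0.555 and 2.47 in LP, whereas PFKL ranged from 0.0613 to 0.0765 in HP and from 0.119 to 0.156 in LP. By limma on log2(TPM + 0.1), 50.0% of all genes were called, and 0.0535% were called in opposite directions by counts and by that test, none of them among the 10. The lengths behind these values are not stated, and their part in the PFKP and enolase differences was not tested.

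PKM, the pyruvate kinase of most tissues outside the liver, held 98, 50 and 104 counts in HP, against 89, 166 and 128 in LP. Its level was 30.2 ± 11.7 CPM in HP and 63.9 ± 22.3 CPM in LP (SD, n = 3 each). The highest HP library and the lowest LP library lay close together, at 39.0 and 40.3 CPM. The log2 fold change was -1.08 (SE 0.40), and the threshold was missed (adjusted p = 0.0558). PKM passed without LP replicate 1 (adjusted p = 0.0332), with DESeq2 (adjusted p = 0.0368), without genes above 1% of any library (adjusted p = 0.0472) and with limma on log2(TPM + 1) (adjusted p = 0.0136). All of these gave the lower level in HP, though on log2(TPM + 1) the median log2 difference of all genes was also negative, at -0.31.

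**Figure D4:**
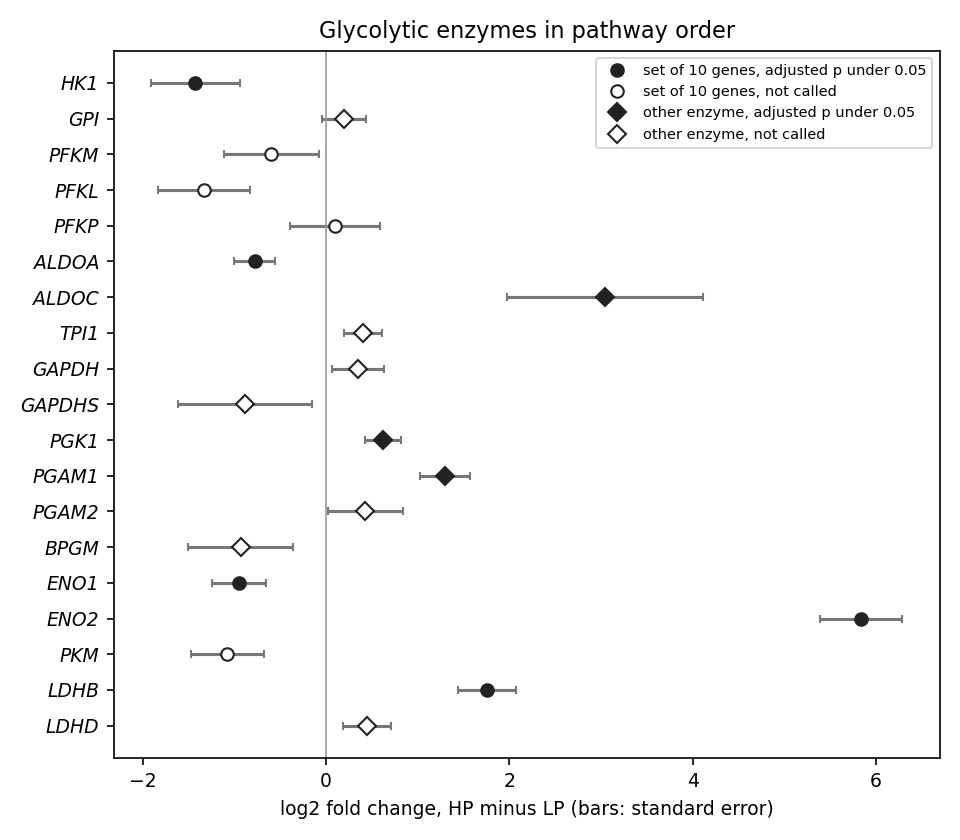
Log2 fold change, HP minus LP, with its standard error, for each tested glycolytic enzyme in the order of the pathway. Circles are the set of 10 genes and diamonds other enzymes, filled where the adjusted p was under 0.05. ENO2 at 5.84 and ALDOC at 3.04 lie farthest to the right, and HK1 at -1.43 farthest to the left.

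Of 20 other glycolytic enzyme genes with a row, 10 were tested, 3 were called higher in HP and 0 lower, with a median log2 fold change of 0.42. That share called higher is close to the 27.1% of all genes. PGAM1, a phosphoglycerate mutase, was 2.46-fold higher in HP (adjusted p = 0.00725, and 0.157 on log2(TPM + 1)) and PGK1, a phosphoglycerate kinase, 1.53-fold (adjusted p = 0.0334). The third was ALDOC. PGK1 lost its call without HP replicate 2 or 3 or LP replicate 1 or 2 (adjusted p = 0.0808, 0.0823, 0.0686 and 0.0753) and without genes above 1% of any library (adjusted p = 0.0544). GPI, TPI1 and GAPDH were not called (adjusted p = 0.517, 0.136 and 0.334). GAPDH stood at 1605 ± 51.8 CPM in HP and 1261 ± 374 CPM in LP (SD, n = 3 each). GAPDHS, PGAM2, BPGM and LDHD were not called either (adjusted p = 0.338, 0.405, 0.205 and 0.185). With TPM the log2 differences of GPI, TPI1, GAPDH, PGK1, PGAM2 and LDHD turned negative, as did the median of all genes, at -0.31 with a pseudocount of 1, and none of the 6 was called.

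Genes around glycolysis were counted by function, and over all 66 tested genes outside the set of 10, 9 were called higher in HP and 16 lower. These 25 calls are a smaller share than the 51.2% called among all genes, and the share called lower is close to the 24.1% of all genes. Of 12 tested genes of pyruvate entry into mitochondria, 2 were higher in HP and 4 lower, with a median log2 fold change of -0.15. These 6 calls are a share close to that of all genes. PC, pyruvate carboxylase, was 3.69-fold higher in HP (adjusted p = 0.00831), and DLAT, a subunit of pyruvate dehydrogenase, 1.83-fold (adjusted p = 0.00812), though 1.07-fold and not called with log2(TPM + 1). PDK3 and PDK4, kinases that switch pyruvate dehydrogenase off, were 4.70-fold and 3.70-fold lower in HP (adjusted p = 0.00330 and 0.0161). PDK4 was not called without HP replicate 1 or 2 (adjusted p = 0.0734 and 0.0641). MPC1, a mitochondrial pyruvate carrier subunit, and PDP1, which switches pyruvate dehydrogenase on, were 1.81-fold and 2.32-fold lower (adjusted p = 0.0346 and 0.0420). In TPM the groups overlapped for PDP1, with 1.28, 4.03 and 2.19 in HP and 13.5, 12.5 and 3.16 in LP, but not for MPC1.

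Of 9 tested genes of the glycerol phosphate and malate-aspartate shuttles, which pass the electrons of glycolysis into mitochondria, 4 were higher in HP and 1 lower, with a median of 0.17. These 5 calls are a share close to the 51.2% called among all genes. The transaminase genes GOT2 and GOT1 were 4.73-fold and 3.44-fold higher in HP (adjusted p = 0.00110 and 0.00148), and GOT2 stood at 545 ± 116 CPM in HP and 115 ± 22.0 CPM in LP (SD, n = 3 each). Both calls held without each library in turn. MDH2, mitochondrial malate dehydrogenase, was 1.60-fold higher in HP (adjusted p = 0.0246), and MDH1, the cytosolic form, 1.50-fold (adjusted p = 0.0435). MDH2 was not called without HP replicate 2 or 3 or LP replicate 2 (adjusted p = 0.0729, 0.0532 and 0.0673), and its direction turned with TPM. The direction of MDH1 turned too, with a mean log2(TPM + 0.1) difference of -0.17 and overlap between the groups in TPM. GPD2, mitochondrial glycerol phosphate dehydrogenase, was 1.84-fold lower in HP (adjusted p = 0.0349), a call lost without any single library (adjusted p = 0.0521 to 0.146), with DESeq2 (adjusted p = 0.0534), with library totals (adjusted p = 0.115), with no filter (adjusted p = 0.142) and with at least 1 CPM in all libraries (adjusted p = 0.0507).

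Of 10 tested glycogen genes, 0 were higher in HP and 3 lower, with a median of -0.28, against 27.1% higher and 24.1% lower among all genes. PYGL, the liver glycogen phosphorylase, held 1, 10 and 18 counts in HP, against 86, 28 and 89 in LP, 9.83-fold lower in HP (adjusted p = 0.00966). It was 15.9-fold lower without HP replicate 3 and was not called without HP replicate 2 (adjusted p = 0.0502). PGM1, phosphoglucomutase, was 4.34-fold lower (adjusted p = 0.00254). PHKG2, a phosphorylase kinase subunit, was 2.34-fold lower (adjusted p = 0.0252), and not called without HP replicate 1, 2 or 3 (adjusted p = 0.0766 at the lowest), with library totals (adjusted p = 0.0593) or with no filter on low counts (adjusted p = 0.0770). Of 6 tested pentose phosphate genes, 0 were higher and 2 lower, with a median of -0.59, against the same 27.1% and 24.1% of all genes. PGD was 3.23-fold lower in HP (adjusted p = 0.00121). PGLS was 2.05-fold lower (adjusted p = 0.0106), a call that ended without HP replicate 1 or 2 (adjusted p = 0.0576 and 0.0508). These enzymes feed the branch that makes NADPH and ribose.

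Carriers and regulators followed. Of 10 glucose and lactate carrier genes only 3 were tested, and BSG, the partner protein of lactate carriers, was 1.67-fold lower in HP (adjusted p = 0.0382). BSG was not called without HP replicate 1, 2 or 3 or LP replicate 2 (adjusted p = 0.167, 0.117, 0.115 and 0.0582), nor with library totals (adjusted p = 0.155), with no filter on low counts (adjusted p = 0.141) or with at least 1 CPM in all libraries (adjusted p = 0.0621). The 2 tested genes of enzymes that set the phosphofructokinase activator, PFKFB3 and TIGAR, were not called (adjusted p = 0.0986 and 0.167).

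Of 14 tested regulators of glycolytic genes and of PKM splicing, 0 were higher in HP and 5 lower, with a median of -0.63, and these 5 calls are a smaller share than the 51.2% called among all genes. PTBP1, a splicing repressor known from other mammals to act on PKM, held 2, 1 and 3 counts in HP, against 35, 42 and 34 in LP. Its fitted level was 24.1-fold lower in HP (adjusted p = 6.16e-04). PTBP2, its neuronal relative, named after its values were seen, was not called and held 528, 577 and 579 counts in HP, against 335, 268 and 389 in LP (adjusted p = 0.298). HNRNPA1, another splicing factor of PKM, was 2.96-fold lower (adjusted p = 0.00349). ARNT and EPAS1, partners in the hypoxia response, were 2.82-fold and 3.70-fold lower in HP (adjusted p = 0.00599 and 0.0151). EPAS1 was 2.23-fold lower without LP replicate 1 and was not called without HP replicate 1 or 2 (adjusted p = 0.0746 and 0.0687). SRSF3, a splicing factor, was 1.73-fold lower (adjusted p = 0.0437). MDH1, MPC1, PDP1 and SRSF3 were named after their values were seen. Whether their calls held without single libraries is not given here.

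Several sets of cell type markers also differed between HP and LP, and their part in the differences of the enzyme genes was not tested. Of 11 tested neuron markers, 9 were higher in HP and 0 lower, and their summed level, as CPM of the library totals, was 5853 to 6243 CPM in HP and 505 to 1016 CPM in LP. All 11 tested pituitary markers were lower in HP, and all 9 cerebellar markers were higher. LP replicate 3 had the lowest neuron sum and the highest ENO2 and LDHB of the LP libraries. Astrocyte markers without ALDOC summed to 3803, 5077 and 4814 CPM in HP and to 158, 126 and 10754 CPM in LP replicates 1, 2 and 3, with 0 of 7 genes called in either direction. The LP library with high ALDOC was thus the LP library with high astrocyte markers. Its oligodendrocyte sum was 11054 CPM, against 66.1 and 18.2 CPM in the other LP libraries and 496 to 762 CPM in HP. Of the microglial, endothelial and connective tissue markers, 5 of 7, 2 of 5 and 3 of 5 tested were lower in HP and 0 higher. Among all genes tested, 24.1% were lower in HP and 27.1% higher. Choroid plexus markers summed to 114, 120 and 4537 CPM in HP and 37.6, 9.51 and 7404 CPM in LP. Of 3 tested genes, 0 were called. Replicate 3 of each group stood apart in this sum, where most of it was TTR. HP replicate 3 had 11947 TTR counts, against 246 and 304 in HP replicates 1 and 2. KCNJ13 stayed at 15 to 20 counts across HP, CLIC6 and FOLR1 reached at most 7 and 1, and KL rose from 0 and 3 to 16. LP replicate 3 was the highest LP library for TTR (14490 counts), KL (83), KCNJ13 (80), FOLR1 (12) and CLIC6 (8). Muscle markers summed to at most 15.4 CPM in HP and 12.7 CPM in LP. Erythroid markers were at most 20.1 CPM in HP and 46.4 CPM in LP.

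**Figure D5:**
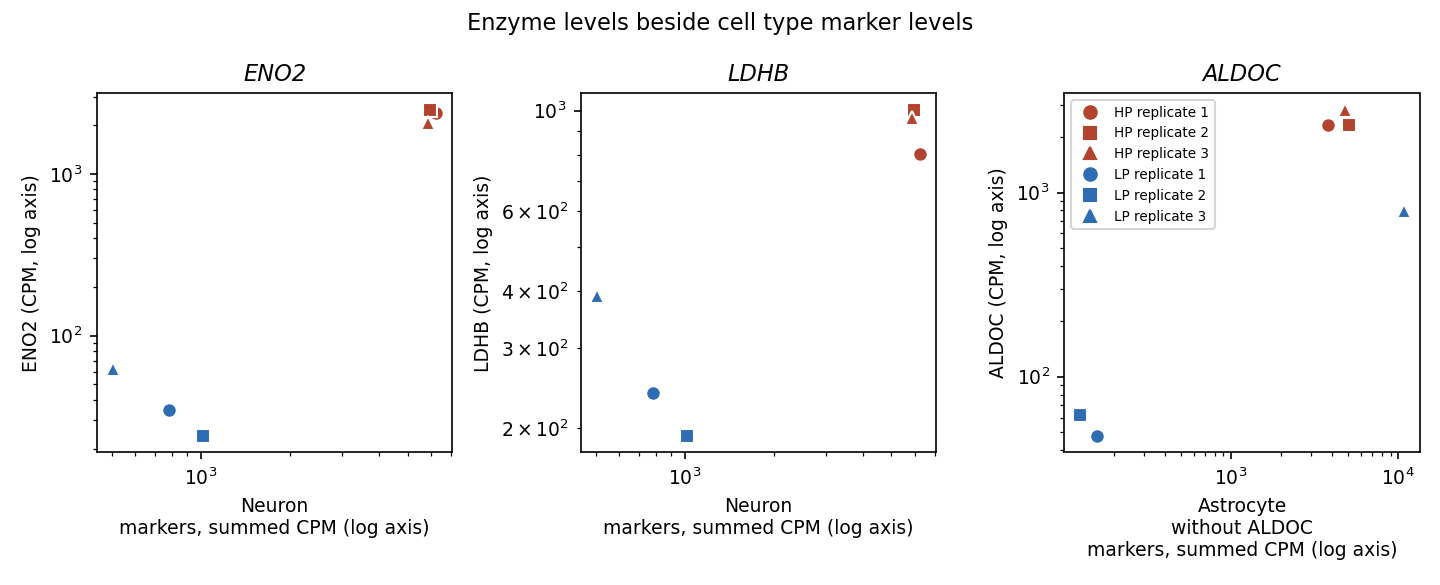
ENO2 and LDHB against the summed neuron markers, and ALDOC against the summed astrocyte markers without ALDOC, in each library, with HP in red and LP in blue. Enzyme levels are in TMM-scaled CPM and marker sums in CPM of the library totals, all on log axes. HP and LP form separate groups for ENO2 and LDHB. LP replicate 3 lies between the other LP libraries and the HP libraries for ALDOC, and beyond the HP libraries for astrocyte markers. Most of the astrocyte sum is S100B.

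The genes whose log2 CPM followed each enzyme most closely over the 6 libraries, which share the split into HP and LP, were listed as a description. ENO2 was closest to ADAM22 and FAT2 (Pearson's r = 0.9995 for both) and LDHB to PRRT1 and VAT1L (r = 0.998 for both). FAT2, a cadherin gene of cerebellar granule cells, stood at 476, 491 and 449 CPM in HP and 6.80, 5.61 and 14.6 CPM in LP. VAT1L stood at 564, 798 and 776 CPM in HP and 20.9, 9.18 and 64.1 CPM in LP. HK1 was closest to MFF and RARRES1, PFKL to PPP4C and PARP1, ALDOA to SEC24C and ZSWIM8, ENO1 to UBL7 and UBE2E1, and PKM to MOSPD3 and TMEM106C (r from 0.990 to 0.998). PFKM was closest to OGG1 and TMEM41B (r = 0.973 and 0.968) and PFKP to NALCN and ZBTB11 (r = 0.986 for both). No gene of the set was the closest match of another.

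Summed over the 10 genes, expression was 3422 ± 220 CPM in HP and 617 ± 130 CPM in LP (SD, n = 3 each), and most of the HP sum was ENO2 and LDHB. In TPM the sum was 1112, 807 and 1012 in HP and 221, 189 and 253 in LP, with no overlap.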

How the data were processed

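Per the labels' protocols, total RNA was sequenced as amplified full-length cDNA. The submitters' processing notes name minimap2 2.17-r941. For the quantification tool, the build and the annotation nothing is stated. The authors deposited estimated counts per gene, unscaled, and TPM, whose treatment of length is not stated. Estimated counts were rounded to whole numbers. Genes were filtered with filterByExpr, scaled with TMM and tested with edgeR 4.0.16 (R 4.3.3, quasi-likelihood, two-sided, Benjamini-Hochberg over 13078 genes, threshold 0.05). The fit was also run on simulated data in which few genes differed between groups. That run could not check the scaling for data in which as many genes differ as here. DESeq2 1.42.0, limma 3.58.1, other scalings and filters, TPM and leaving out each library were alternatives. Ratios were computed from TPM within a library and compared by exact permutation (SciPy 1.17.1). LOC features were named through RefSeq gene IDs (ARS-UI_Ramb_v3.0), whose coordinates were not used. Members and lists were chosen with earlier results of these data known. Text named all 10 members, every tested glycolytic enzyme, up to 4 called genes of each other list by p, and the 2 genes most like each member.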

Additional observations from a re-analysis of the deposited data

How the results depend on the processing

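The number of genes called over the whole table stayed within 4795 to 7912 when 1 library was left out, against 6693. It was 6691 with DESeq2, 6692 without genes above 1% of any library, 6569 with library totals alone and 7479 with no filter. Limma on log2(TPM + 1) and log2(TPM + 0.1) called 51.2% and 50.0% of all genes. Of the 10 enzyme genes, 9 were tested and 5 called, a share close to the 51.2% of all genes. DESeq2, leaving out genes above 1% of any library, log2(TPM + 1) and log2(TPM + 0.1) gave 7 each, library totals alone and no filter on low counts gave 2 each, and leaving out 1 library gave 2 to 6, with 3 without HP replicate 1 and 2 without HP replicate 2 or 3. The genes called lower in HP were 3, but 5 with DESeq2, 5 without genes above 1% of any library, 0 with library totals alone, 0 with no filter, and 0 to 4 with 1 library left out. ENO2 and LDHB were called in the same direction under all 16 alternatives. The 66 tested genes around glycolysis gave 25 calls, and 11 to 30 with 1 library left out, with 14, 11 and 16 without HP replicate 1, 2 and 3. The 5 ratios kept their direction under all 8 alternatives each. Among called genes, 52.9% were higher in HP, against 63.8% with library totals alone, 36.2% with log2(TPM + 1) and 35.1% with log2(TPM + 0.1), where the median of all genes was 0.28, -0.31 and -0.40 instead of 0.02. Signs turned for PFKM without LP replicate 2 (0.037) and PFKP without LP replicate 3 (-0.33), and leaving out 1 library gave -0.87 to 0.037 for PFKM and -0.33 to 0.67 for PFKP. They also turned with TPM plus 1 and plus 0.1 for GPI (-0.52 and -0.54), TPI1 (-0.34 and -0.35), GAPDH (-0.37 and -0.37), PGK1 (-0.15 and -0.15), PGAM2 (-0.20 and -0.24), LDHD (-0.21 and -0.30) and MDH2 (-0.074 and -0.075). With TPM plus 0.1 the sign of MDH1 turned as well (-0.17). The causes were not tested. No paired analysis was possible because the labels give no replicate numbers shared between HP and LP.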

Other observations

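Several genes of glucose use, picked after their values had been seen, had far more counts in LP replicate 3 than in the rest of LP. PYGM, the glycogen phosphorylase of muscle and of astrocytes, held 34, 38 and 51 counts in HP, against 8, 2 and 156 in LP replicates 1, 2 and 3. SLC2A1, the glucose carrier of the blood-brain barrier and astrocytes, held 93, 143 and 126 in HP, against 37, 31 and 212 in LP. EGLN3, an oxygen sensor gene, held 11, 7 and 15 in HP, against 22, 6 and 110 in LP. GFAP, an astrocyte marker, held 91, 67 and 109 counts in HP, against 7, 1 and 1455 in LP.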
